A study of Mus musculus with 12 samples.

Results

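The promoters of 55 ribosomal protein genes were examined in chromatin accessibility data from fibroblasts at the start of their conversion to hepatocyte-like cells. A member was any peak of the deposited table that lay within 1 kb of an annotated start site (GENCODE M21, mm10) of a listed gene, pseudogenes not counted. The rule uses no measured value, but the genes were listed with earlier results of these data known. Of 176680 peaks, 62 were members, and 54 of the 55 genes had at least 1, which left out Rps25. The peaks fell on 18 chromosomes. Of all peaks, 22215 were promoter peaks by the same distance, and 15153 protein-coding genes had one.

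ATAC-seq, in which the transposase Tn5 cuts and tags open DNA, had been run on primary embryonic fibroblasts (MEFs) taken at embryonic day 13.5 from wild-type C57BL/6N mice. The groups compared here, 4in1_GFP_OE and 4in1_Prox1_OE, had 3 libraries each and were collected on day 2 of doxycycline. Cells of both groups had received lentiviruses for the doxycycline-dependent activator rtTA and for 4in1, a vector of transcription factors that turns fibroblasts into induced hepatocytes. They differed in the further virus, which carried GFP in one group and FLAG-tagged mouse Prox1, a transcription factor of hepatocytes, in the other. Transgenes were delivered by virus, and the share of cells that took up each virus is not part of these values. The further groups of the series, MEF (rtTA alone) and Prox1_OE (rtTA and Prox1), are not analysed here.

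Each ribosome carries a copy of nearly every ribosomal protein, and cells make these proteins in step with growth. Proteins of the large subunit (60S) surround the site where peptide bonds form, the P stalk on its flank calls in elongation factors, and proteins of the small subunit (40S) hold the decoding site. Their genes are expressed in all dividing cells, carry CpG-rich promoters that stay open, and often start their transcripts with a pyrimidine tract, called a TOP sequence, that couples translation to growth signals. Many of their introns also hold small nucleolar RNAs.

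Accessibility was given as a level, the log2 of the mean normalized read count of a peak in a group, and a difference was the level in 4in1_Prox1_OE minus that in 4in1_GFP_OE. Both levels are the authors' means over the libraries of a group. Values per library were not used here, so no spread between replicates stands beside any value, no difference was tested, and a difference of 1 (a doubling or halving) served only as a mark of size. Over all peaks the median difference was −0.42, and 24.4% of peaks were lower by at least 1 with Prox1, 8.33% were higher by at least 1 and 72.3% were lower by any amount. The position of 0 rests on the authors' normalization, which followed the vignette of the tool DiffBind and is not described further in the methods. Of the fibroblast marker genes listed, 14 of 14 had a promoter peak, from Lum at a mean level of 5.95 to Fn1 at 9.45.

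Promoter sequence was read for the 6 genes at which the values below stand at an extreme or the motifs meet. They are Rpl22 with the lowest difference, Rps21 with the lowest among small subunit genes, Rps3 with the difference nearest 0 among genes whose start lay in the peak, Rpl37 with the highest level, and Rps6 and Rpl26, which carry an uncommon palindrome. The runs are from RefSeq (GRCm38.p6, the same build as mm10), 100 bases before and 15 after its annotated start, which can differ from the GENCODE start, and they read 5′ to 3′ on the strand of the gene. Capitals mark the searched motifs, namely the ETS core CCGGAAG, the GC box GGGCGG, the CCAAT box, the AP-1 motif TGANTCA and the palindrome CTCGCGAG that the factor BANP binds, on either strand, and a TOP run at the start base. Rpl22 lies at chr4:152325626-152325740 (+), Rps21 at chr2:180257279-180257393 (+), Rps3 at chr7:99483695-99483809 (−), Rpl37 at chr15:5116513-5116627 (+), Rps6 at chr4:86857353-86857467 (−) and Rpl26 at chr11:68901466-68901580 (+).
Rpl22: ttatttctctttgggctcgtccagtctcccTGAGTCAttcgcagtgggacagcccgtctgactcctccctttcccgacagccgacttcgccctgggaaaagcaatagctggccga
Rps21: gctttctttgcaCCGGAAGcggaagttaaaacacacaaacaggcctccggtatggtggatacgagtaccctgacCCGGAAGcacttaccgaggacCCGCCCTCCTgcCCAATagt
Rps3: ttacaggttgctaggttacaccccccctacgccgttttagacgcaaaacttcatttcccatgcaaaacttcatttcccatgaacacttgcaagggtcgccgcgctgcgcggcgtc
Rpl37: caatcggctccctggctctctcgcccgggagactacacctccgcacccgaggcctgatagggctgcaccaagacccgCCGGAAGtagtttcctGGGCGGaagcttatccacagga
Rps6: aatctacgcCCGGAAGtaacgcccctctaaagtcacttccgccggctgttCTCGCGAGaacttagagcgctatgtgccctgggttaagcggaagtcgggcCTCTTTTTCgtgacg
Rpl26: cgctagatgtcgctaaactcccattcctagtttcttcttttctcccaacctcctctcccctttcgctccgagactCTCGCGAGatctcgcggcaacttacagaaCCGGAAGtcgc

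With 0 where the authors' normalization places it, the promoters of ribosomal protein genes were slightly less accessible with Prox1, and they differed from each other little. Taking the most accessible promoter peak of each gene, the median difference over the 54 genes was −0.19, with quartiles of −0.25 and −0.14, so that normalized reads with Prox1 were 0.874 of those with GFP at the median. The difference was below 0 at 54 of 54 genes, where 82.9% of all protein-coding genes with a promoter peak and 77.9% of all promoter peaks were lower by any amount. By level, 90.9% of promoter peaks inside the level range of the 54 genes were lower, as were 92.1% of the top 10% of all peaks and 99.0% of the top 10% of promoter peaks. The count of 54 turns on the placing of 0: it was 2 of 54 with 0 at the median of all peaks or at the ratio of totals, 10 with 0 at the median of the top 10% of peaks by level, and 22 with 0 at the median of promoter peaks. As deposited, the difference ran from −0.56 at Rpl22 to −0.01 at Rpl7, whose peak lay 706 bases from its start. Of the genes, 41 lay between −0.3 and −0.1. No gene was lower or higher by at least 1, a size that 2.7% of protein-coding genes reached downward and 1.17% upward. Rpl22 and Rpl32 were lower by at least 0.5, where 12.3% of protein-coding genes were.

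The median of these genes was nearly that of all protein-coding genes, also −0.19, and of all promoter peaks, −0.21. Their spread was narrower than that of these wider sets. The distance between quartiles was 0.11 for ribosomal protein genes, 0.25 for protein-coding genes, 0.42 for promoter peaks and 1.06 for all peaks. Among sets of high level it was 0.20 for the 10999 promoter peaks inside the level range of the 54 genes, 0.39 for the top 10% of all peaks, which held 53 of them, and 0.13 for the top 10% of promoter peaks, which held 11. Against the median of all peaks, by contrast, ribosomal protein genes lay 0.22 higher. Summed over the 54 genes, normalized reads with Prox1 were 0.868 of those with GFP, and over all peaks the ratio was 0.751.

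**Figure D1:**
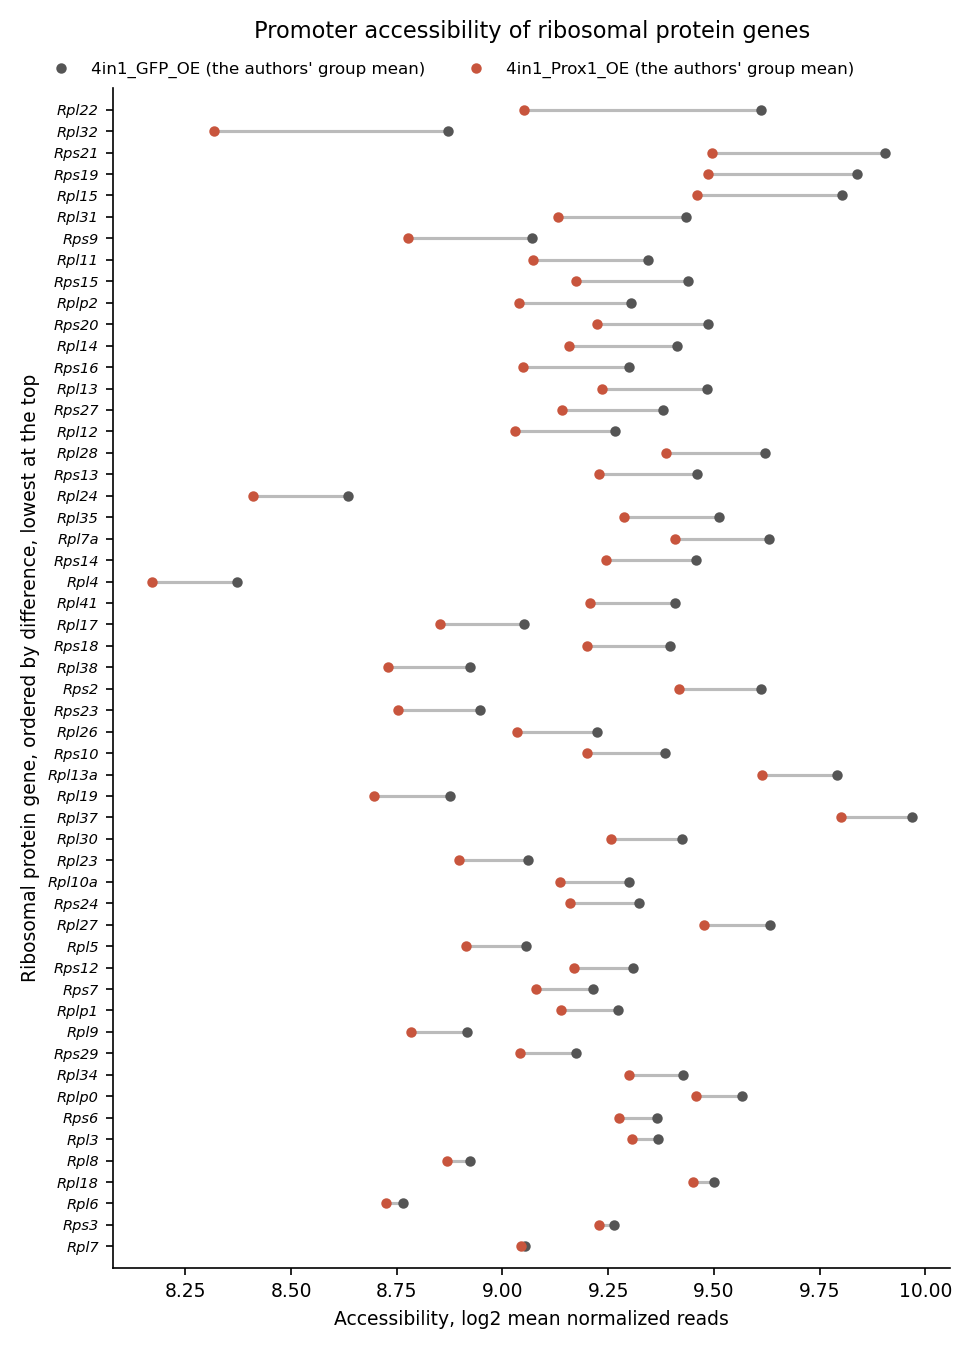
Accessibility of the most accessible promoter peak of 54 ribosomal protein genes, as log2 mean normalized reads on the horizontal axis, with a dark point for 4in1_GFP_OE and a red point for 4in1_Prox1_OE (each the authors' mean) joined by a line. The red point lies left of the dark point at every gene, with a difference of −0.56 at Rpl22 at the top and of −0.01 at Rpl7 at the bottom. No error bars are drawn because values per library were not used.

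Large subunit genes made up 32 of the 54, with a median difference of −0.19. Rpl22, whose product is dispensable for translation in general but needed for T cell development, had 782 normalized reads with GFP and 530 with Prox1, levels of 9.61 and 9.05. Its difference of −0.56 was the lowest among the most accessible peaks of the 54 genes. Its start lay inside the peak, which covered chr4:152325673-152325873.

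Rpl32, a core protein of the large subunit, went from a level of 8.87 with GFP to 8.32 with Prox1, a difference of −0.55. By most accessible peak, it was thus the gene with the widest gap after Rpl22, and it had one of the lowest levels. Rpl15 differed by −0.34 (9.80 and 9.46), and its peak also served the start of Nkiras1. Rpl31 differed by −0.30 (9.43 and 9.13). Rpl5 and Rpl11, which together can bind the p53 ubiquitin ligase Mdm2, differed by −0.14 and −0.27.

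At the other end, Rpl7 had levels of 9.05 with GFP and 9.04 with Prox1, a difference of −0.01. Its peak lay 706 bases upstream and is shared with Rdh10, a retinol dehydrogenase gene, so the value is not that of the Rpl7 start itself. With a window of 500 bases Rpl7 had no peak, and the value nearest 0 was then −0.04 at Rps3. Rpl6 differed by −0.04 (8.77 and 8.72), Rpl8 by −0.06 (8.92 and 8.87) and Rpl3, whose product reaches into the peptidyl transferase centre, by −0.06 (9.37 and 9.31). The peak taken for Rpl18, with a difference of −0.05 (9.50 and 9.45), lay at an alternative start that it shares with Sphk2, a sphingosine kinase gene. Its further peak, over another annotated start and also shared with Sphk2, differed by −0.21 (9.45 and 9.24).

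The P stalk is built from Rplp0, which anchors it to the ribosome, and from Rplp1 and Rplp2. Rplp0 had levels of 9.57 with GFP and 9.46 with Prox1 and differed by −0.11. Rplp1 differed by −0.13 (9.27 and 9.14), and Rplp2 by −0.26 (9.30 and 9.04). The anchor thus had the highest level of the stalk genes in both groups, and the gap at Rplp2 was the widest of them. All lay within the range of the other members.

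Small subunit genes numbered 19, with a median difference of −0.20. Rps21 had a level of 9.90 with GFP and of 9.50 with Prox1, or 958 and 722 normalized reads, and its difference of −0.41 was the lowest of the subunit. Rps19, a gene mutated in Diamond-Blackfan anaemia, differed by −0.35 (9.84 and 9.49). Both were among the most accessible promoters of the list in either group. Rps6, the target of S6 kinases, differed by −0.09 (9.36 and 9.28). Rps3, at the entry of the mRNA channel, differed by −0.04 (9.26 and 9.23), the value nearest 0 of the subunit. Whether the gaps of Rps21 and Rps19 exceed the spread between libraries cannot be read from group means.

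Of the 54 genes, 47 had 1 peak, 6 had 2 and 1 had 3, and differences at the further peaks, which are the weaker ones by definition, were more spread. Over all 62 peaks the median difference was −0.20, and 2 were above 0. Lower by at least 0.5 were 4 of the 62, where 22.9% of promoter peaks were. None reached 1, where 8.26% of promoter peaks were lower and 3.16% higher. Among the 8 peaks that were not the most accessible of their gene, the median level was 7.61, against 9.28 for the 54 that were. Their median difference was −0.25, with 0.39 between quartiles.

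Rpl38, a gene whose loss alters the axial skeleton of mice, had peaks of opposite sign. The stronger one, 283 bases from the nearest annotated start, differed by −0.19 (8.92 and 8.73), and the weaker one, 344 bases from another start of the gene, by 0.38 (7.49 and 7.87). Rps14 had the same kind of pattern over its 3 peaks. The peak over its start differed by −0.21 (9.46 and 9.24), another by −0.61 (7.50 and 6.89), and the third, which is also a promoter peak of Ndst1, by 0.14 (8.75 and 8.89). In the weaker peak of Rpl31, 793 bases away, the difference was −0.80 (7.03 and 6.22), the lowest of any member peak. Further peaks of Rps29, Rps2 and Rpl13 differed by −0.37, −0.29 and −0.10.

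Rps25 had its nearest peak 5208 bases from a start, at a mean level of 6.37 and a difference of −0.07. Of the peaks that the distance of 1 kb admitted, the farthest lay 989 bases from Rpl13 and the next 846 bases from Rps14. Of those it left out, the nearest lay 1169 bases from Rpl41, with a difference of −0.09, and 1192 bases from Rpl14, with a difference of 0.15.

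**Figure D2:**
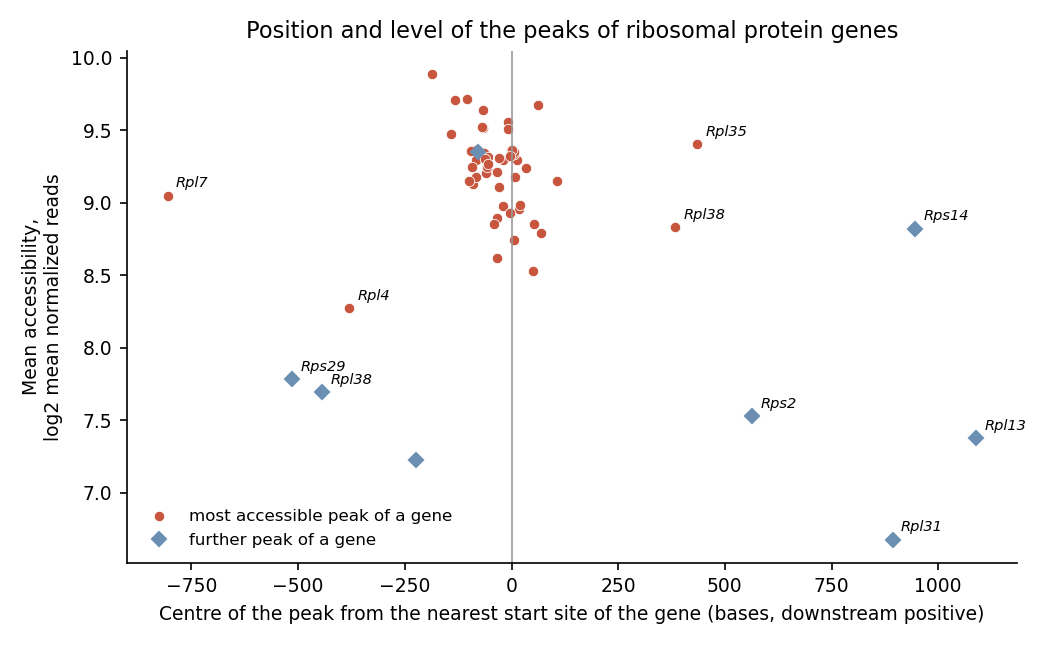
Distance of the centre of each of the 62 peaks from the nearest start of its gene in bases (negative is upstream) against the mean level over both groups in log2 mean normalized reads, with red points for the most accessible peak of a gene and blue diamonds for its further peaks; peaks far from a start carry the gene's name. Most red points lie near 0, the lowest is Rpl4 at a level of 8.28, and the blue diamonds reach down to 6.68 at Rpl31.

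Ribosomal protein promoters were among the most accessible regions of these cells. The median of their mean level over both groups was 9.28, which 97.9% of all peaks and 84.3% of promoter peaks did not exceed. In 4in1_GFP_OE the median was 9.37 and in 4in1_Prox1_OE 9.16. Of the 54 genes, 53 lay in the top 10% of all peaks, 46 in the top 5%, and 11 in the top 10% of promoter peaks. Of the 22215 promoter peaks, 10922 were likewise in the top 10% of all peaks. Compared gene by gene through the most accessible peak, protein-coding genes had a median level of 8.95 and an upper quartile of 9.29, so the median of 9.28 was close to that quartile.

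The highest mean level was that of Rpl37, at 9.89, and 25 peaks of the whole table were more accessible. Its levels were 9.97 with GFP and 9.80 with Prox1. Rps21 and Rpl13a followed at 9.71 each, and Rps19 at 9.67. The lowest were Rpl4, which lines the exit tunnel, at 8.28, then Rpl24 at 8.53, Rpl32 at 8.62 and Rpl6 at 8.75. At Rpl4 the peak lay 281 bases upstream and is shared with Zwilch, a kinetochore gene. Levels compare windows of equal width, since peaks were 201 bases wide in all but 8 cases of the whole table. Neighbours in this order differed by amounts whose error is unknown.

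The order of the genes was alike in both groups. Across the 54 genes the 2 levels had a Pearson correlation of 0.942, and the mean level and the difference one of −0.08 (Spearman −0.17). These describe genes measured in the same libraries, not replicates. Across all peaks the difference varied with level: cut into 10 equal parts by mean level, the peaks had a median difference of 0.22 in the lowest part, −0.62 in the 7th and −0.26 in the highest, where all genes of the list but Rpl4 lay.

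**Figure D3:**
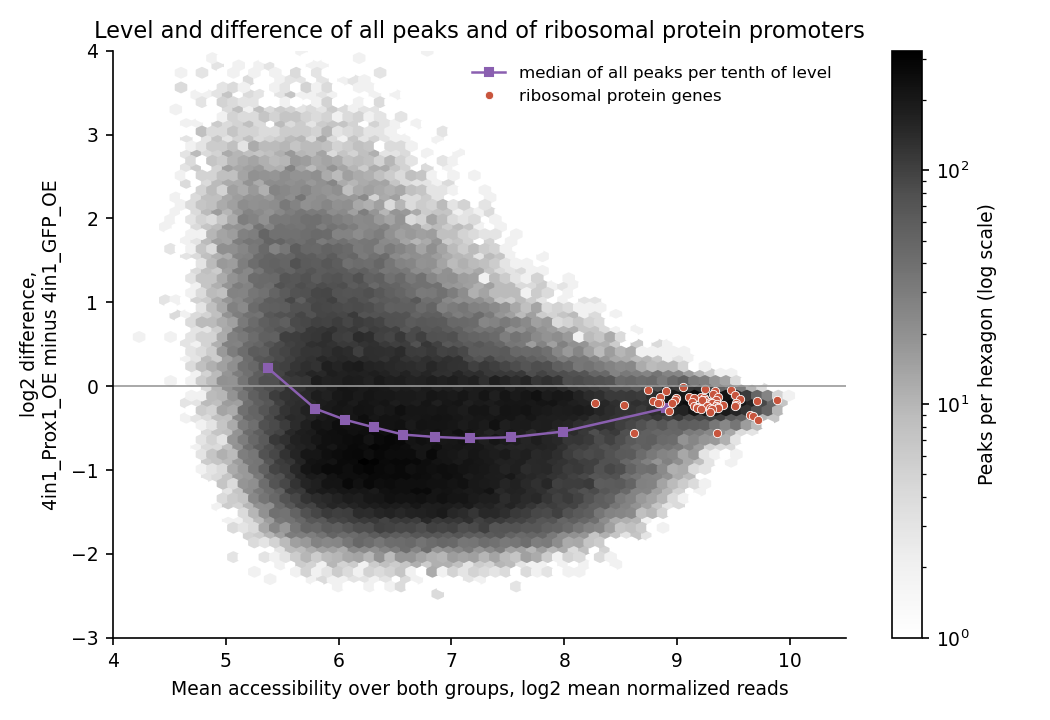
Mean level over both groups (log2 mean normalized reads) against the difference (4in1_Prox1_OE minus 4in1_GFP_OE, log2), with grey hexagons for the number of peaks on a log scale, purple squares for the median of all peaks in each of 10 equal parts by level, and red points for 54 ribosomal protein genes; the vertical axis ends at −3 and 4. The red points form a narrow band just below 0 at levels of 8.28 to 9.89, and the purple squares fall from 0.22 to −0.62 and return to −0.26.

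The peaks sat close to the start sites. At 45 of 54 genes (83.3%) the start lay inside the peak, against 60.1% of protein-coding genes, and at 50 (92.6%) it lay in the peak or within 100 bases of it, against 76.4%. The centre was upstream of the start at 38 genes (70.4%, against 62.1%), and the median position of the centre was −33.5 bases from the start. By the annotation 48 peaks overlapped an exon of their gene, and 6 lay wholly upstream. Among genes with the start within 100 bases the median difference was −0.19, as over all 54.

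Gene features that the choice did not use showed almost no difference between their carriers and the rest. The 20 genes that host a small nucleolar RNA had a median difference of −0.20 and the other 34 one of −0.19. The 10 genes that share their peak with another annotated protein-coding gene, among them Rpl7a with Med22, Rps18 with Vps52 and Rps27 with Rab13, also had −0.20, and the other 44 had −0.19. With centres upstream the median was −0.19, with centres downstream −0.21.

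In base composition the peak windows of the 54 genes had a median GC content of 61.4%, below the 66.2% of protein-coding genes and the 68.2% of the top 10% of promoter peaks. Their CpG content was high for that composition, with a median observed-to-expected ratio of 0.971. It was 0.825 for protein-coding genes and 0.889 for the top 10% of promoter peaks. Over all promoter peaks the median difference rose with GC content, from −0.65 in windows below 40% to −0.14 at 70% or more. The medians of ribosomal protein genes stayed between −0.23 and −0.17 in the GC classes that held any of them. None lay below 40%, and the classes of 40 to 50%, 50 to 55% and 70% or more held only 2, 4 and 4 of them. The classes of 55 to 60%, 60 to 65% and 65 to 70% held 17, 17 and 10. There the medians of all promoter peaks were themselves −0.25, −0.21 and −0.19. GC content and difference had a Pearson correlation of 0.03 across the 54 genes (Spearman −0.06).

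The RefSeq table of promoters, 250 bases before to 50 after a start, held 45 of the 55 genes, of which 44 had a promoter peak. It did not give Rpl3, Rpl7, Rpl8, Rpl17, Rpl30, Rpl32, Rplp1, Rps14, Rps20 or Rps29. Exact matches were counted on both strands and set beside 11694 protein-coding genes with a promoter peak and all 32851 promoters of the table. The ETS core CCGGAAG, bound by GABP and its relatives, was in 16 of 44 (36.4%), in 16.3% of protein-coding genes and in 8.86% of all promoters. It appears above in Rps21 at positions −88 and −26, in Rpl37 at −23, in Rps6 at −91 and in Rpl26 at 4, counted from the start base as 0. In the peak windows it was in 19 of 54 (35.2%), against 14.1% of protein-coding genes and 16.7% of the top 10% of promoter peaks.

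The palindrome CTCGCGAG was in 5 of 44 promoters (11.4%), those of Rpl10a, Rpl12, Rpl26, Rps19 and Rps6, against 1.82% of protein-coding genes and 0.919% of all promoters. Its first base lay 50 bases before the start in Rps6 and 25 before it in Rpl26. In the peak windows 6 of 54 held it (11.1%), against 1.64% of protein-coding genes and 3.56% of the top 10% of promoter peaks. Genes with the palindrome had a median difference of −0.19 and those without it −0.20, and for the ETS core both medians were −0.20. A match is a string of letters and was not tested as a binding site.

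A TOP start, taken as a C at the annotated start base followed by at least 4 pyrimidines, was found in 11 of 44 promoters (25.0%), against 2.33% of protein-coding genes and 2.51% of all promoters. With the run allowed within 10 bases of the start it was found in 25 (56.8%), against 32.1% and 30.7%. In Rps6 it is the run of capitals at the start, and in Rps21 it overlaps the GC box. Genes with a TOP start at the annotated base had a median difference of −0.23 and the others −0.19, and with the wider definition the medians were −0.19 and −0.20.

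The other motifs gave shares that depended on the region searched, and gaps that depended on the comparison set. In the promoter sequences the GC box GGGCGG was in 59.1% (64.3% of protein-coding genes), CCAAT in 29.5% (37.7%), the TATA motif TATAAA in 4.55% (7.22%), the E-box CACGTG in 11.4% (9.78%) and the YY1 core AAGATGGC in 4.55% (4.09%). In the peak windows the order turned for the TATA motif, found in 5 of 54 (9.26%, against 2.81% of protein-coding genes), and widened for the YY1 core, found in 4 of 54 (7.41%, against 3.37%). There the GC box was in 51.9% (59.6%), CCAAT in 24.1% (29.2%) and the E-box in 9.26% (7.39%). Windows of the top 10% of promoter peaks held the GC box in 82.2%, CCAAT in 53.8% and the E-box in 7.11%. The TATA motif was in 2.12% of them and the YY1 core in 2.57%. The AP-1 motif TGANTCA was in the promoters of Rpl22 and Rpl9 (4.55%, against 5.38%). In Rpl22 it began at position 152325656, before the first base of the peak window at 152325673. Over all promoter peaks, those with this motif in the window had a median difference of −0.65 and those without it −0.20. The motif was in 10.9% of all promoter peaks and in 2.34% of the top 10%, and these medians were not matched for level or GC content. Rpl9, the gene of the list whose peak window held the motif, differed by −0.13. None of the motifs searched was in the run printed for Rps3.

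Other genes of translation and growth had differences of the same size. The lists below, like the members, were drawn up with earlier results of these data known, and each gene is represented by its most accessible promoter peak. Other ribosomal protein genes, 26 of 26 with a peak, had a median difference of −0.20, from Rack1, a signalling scaffold on the small subunit, at −0.55 to Rpl36 at −0.09. Of 8 ribosomal protein paralogues 4 had a peak, with a median of −0.21, from Rpl7l1 at −0.37 to Rps4l at −0.02. A list of translation genes held elongation and initiation factors together with Naca, Btf3, Tpt1 and Pabpc1. For 36 of its 37 genes the median was −0.22, from Eif1ax, which helps to select the start codon, at −0.76 to Eif3b at −0.04. For 55 of 56 ribosome biogenesis factors it was −0.18, from Rrn3, an initiation factor of RNA polymerase I, at −0.45 to Pes1 at −0.04. For 77 of 78 mitochondrial ribosomal proteins it was −0.20, from Mrpl35 at −0.55 to Mrpl20 at 0.03, with 74 lower and 3 higher. Some of these values are not separate measurements. Mrps11 and Mrpl46 shared a peak, as did Mrpl49 with Fau of the other ribosomal protein genes and Mrpl32 with Psma2, a proteasome gene.

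Lists outside translation gave the same level of difference with a single exception. Proteasome subunits, 29 of 31 with a peak, had a median of −0.21, from Psmd8 at −0.45 to Psmd6 at −0.10. General housekeeping genes, 19 of 20, had −0.20, from Gusb, a lysosomal glucuronidase, at −0.71 to Ywhaz at −0.06. Fibroblast markers had a median of −0.41 (−0.33 with a window of 500 bases or 2 kb), from Prrx1, a mesenchymal transcription factor, at −1.27 to Thy1 at 0.20. Their levels were lower too, with a median of 7.73 against 9.28, and promoter peaks in the 8th and 9th of the 10 parts by level, which meet near that level, had medians of −0.32 and −0.27. Of protein-coding genes 82.9% were lower. Of promoter peaks inside the level range of the 54 genes 90.9% were lower, and of the top 10% of promoter peaks 99.0%. Every gene with a peak was lower in the lists of other ribosomal proteins (26), translation genes (36) and biogenesis factors (55). The same held for proteasome subunits (29), housekeeping genes (19) and paralogues (4). The distances between quartiles were 0.11, 0.094, 0.13, 0.11, 0.12 and 0.14 in that order, and 0.17 for mitochondrial ribosomal proteins and 0.32 for fibroblast markers. Median levels ran from 9.04 to 9.22 over these lists without the fibroblast markers. In all, 7 of the 8 lists had a median within 0.05 of that of the 54 ribosomal protein genes. The medians of all protein-coding genes (−0.19) and of all promoter peaks (−0.21) also lay that close to it. Lists were compared by their medians only.

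**Figure D4:**
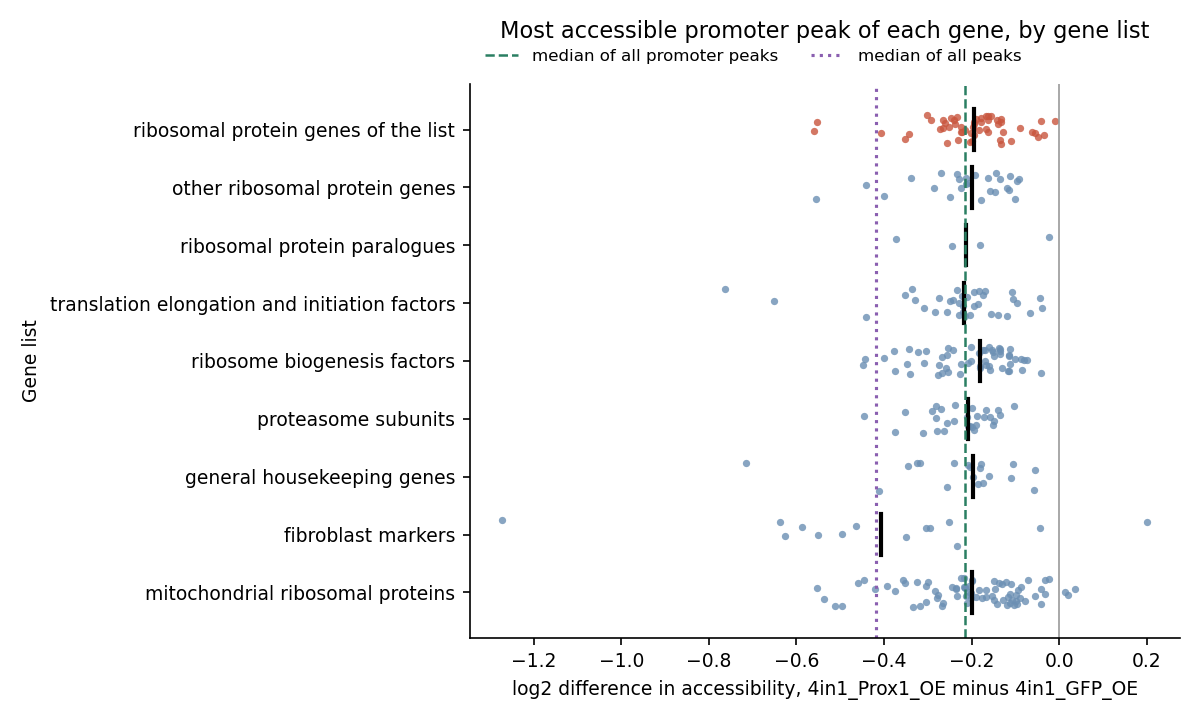
Difference (log2, 4in1_Prox1_OE minus 4in1_GFP_OE) at the most accessible promoter peak of each gene, 1 point a gene (spread vertically at random), with a black bar at the median of each list, a dashed line at the median of all promoter peaks (−0.21), a dotted line at that of all peaks (−0.42) and a grey line at 0. The ribosomal protein genes in red, with a median of −0.19, sit beside the dashed line as the other growth lists do, and the bar of the fibroblast markers lies at −0.41.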

How the data were processed

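ATAC-seq reads of 6 libraries lie behind the table used. Per the study's methods and the submitters' processing notes, the authors trimmed reads (Trimmomatic 0.38), aligned them to mm10 (Bowtie2 2.3.4.3), filtered and corrected them for the insertion of Tn5, and called peaks. The methods name MACS2 and the reporting summary Genrich as the caller. Nothing states if calling was done library by library or after pooling. DiffBind 3.4.11 then counted reads in windows of 201 bases (8 were wider, up to 391) and normalized them. For this step the methods refer to the vignette of that version and name no setting of their own.

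The authors deposited log2 values of mean normalized reads per peak, over both groups and in each group. The table also holds the authors' fold change, p-value and FDR, and 2 peak lists rest on them. None of these was used. The group means alone give no depth per library and no spread between replicates, so no test, SD or interval was computed.

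Differences were taken between the group means as deposited (pandas 2.3.3, numpy 2.4.6), and the scripts were tested on simulated data. Start sites came from the GENCODE M21 basic annotation, promoter sequences from RefSeq, and peak windows from the mm10 genome. Members and gene lists were chosen with earlier results of these data known. Named genes were the 6 lowest and 6 highest differences, the 4 nearest 0, the 4 highest and 4 lowest levels, the P stalk genes, genes with peaks of both signs or with no peak, and the extremes of each other list. The other members named, such as Rpl5, Rpl11, Rpl26 and Rps6, were chosen after their values were seen. Windows, annotations, a pseudocount, a filter on level and 4 placings of 0 were tried as alternatives.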

Additional observations from a re-analysis of the deposited data

How the results depend on the processing

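Apart from the placing of 0, medians of the ribosomal protein peaks and genes stayed within 0.05 of those above with windows of 500 bases or 2 kb, start sites of protein-coding transcripts only, a pseudocount of 10 normalized reads and without the 25% of peaks of lowest level. The same held for 3 choices made after seeing the data, namely the comprehensive annotation, only peaks within 100 bases of a start, and leaving out peaks shared with another coding gene. With the window of 500 bases Rpl7 had no peak, which left 53 genes and 58 peaks. With the window of 2 kb a single gene, Rpl41, took another peak.

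Placing 0 elsewhere moved every gene by the same amount. Subtracting the median of all peaks (−0.42), of the top 10% of peaks by level (−0.26), the ratio of totals (−0.41) or the median of promoter peaks (−0.21) gave peak medians of 0.22, 0.066, 0.22 and 0.018 and gene medians of 0.22, 0.068, 0.22 and 0.020, with 2, 10, 2 and 22 of 54 genes below 0. The sign at these promoters thus follows the placing of 0, and their order, by construction, does not.

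At a size of 0.5 in place of 1, 4 peaks and 2 genes were lower. The comprehensive annotation gave 69 peaks, of which 1 was lower by at least 1. Fibroblast markers had a median of −0.33 with either other window and of −0.35 over all their peaks. In peak windows the GC box was in 51.9% and CCAAT in 24.1%.

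No paired analysis was possible because only group means were used, and no replicate was left out.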

Other observations

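The comprehensive annotation, which adds further transcripts, placed 7 further peaks within 1 kb of a start of Rpl3, Rpl11, Rps9 or Rps24. Each was weaker than the most accessible promoter peak of its gene, with mean levels from 6.55 to 8.56. In Rpl11 a peak at chr4:136028864-136029064, near the far end of the gene, had levels of 7.34 with GFP and 5.88 with Prox1, a difference of −1.45, while the promoter peak of that gene differed by −0.27. Rpl3 had 4 such peaks, with differences of −0.81, −0.69, −0.62 and 0.08. Those of Rps9 and Rps24 differed by −0.64 and −0.28. These values have no replicate error either.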
